A study of Rattus norvegicus with 4 samples.

Results

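The genes described here encode the enzymes that make, use and restore glutathione and the enzymes that break down superoxide and peroxides, measured in the testis of young rats after suppression of follicle-stimulating hormone (FSH). Members were the probe sets whose platform annotation gives exactly 1 gene symbol, where that symbol begins with Gst plus a class letter and a digit, with Mgst, Gpx, Prdx or Sod plus a digit, or with Txn, or is Cat, Gclc, Gclm, Gss, Gsr or Nqo1. The rule used names only and no measured value. It found 75 of the 8799 probe sets on the array, for 41 genes, and 62 of them, for 37 genes, were bright enough to be tested. Probe sets annotated to both Gsta2 and Gsta5 were left out because they carry more than 1 symbol.

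The animals were male Sprague Dawley rats, an outbred laboratory strain with no introduced mutation named in the labels. The control group received a control immunoglobulin (IgG) for 4 days and the other group received an antibody against FSH for 4 days. Each group had 2 RNA samples, each on 1 Affymetrix U34A array, so precision is limited by 4 arrays in all. The groups follow the source names, since the title of FSH antibody replicate 2 reads postnatal day 4 and names no treatment. All 4 source names give the age as postnatal day 18, which matches the series text that starts injections on day 14, whereas the treatment text starts them on day 18 and collects on day 22. Each source name gives testis from 1 rat, a different one for each array, whereas the extraction text speaks of about 20 pooled ovaries per RNA sample. If the source names hold, the arrays are separate animals, but the labels conflict, and p-values measure the spread between these RNA samples, which may then be technical. Clu, a secreted product of Sertoli cells, had intensities from 6440 to 7459 over the 4 arrays, and Amh, the anti-Müllerian hormone of immature Sertoli cells, from 498 to 758, so both markers of Sertoli cells were bright in every sample. The 4 arrays had been scaled to the same trimmed mean intensity of 125 before deposit.

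Glutathione is a small peptide built from glutamate, cysteine and glycine that keeps protein thiols reduced. Glutathione transferases attach it to reactive compounds, glutathione peroxidases spend it to remove peroxides, and glutathione reductase restores it. Peroxiredoxins and thioredoxin form a parallel route, superoxide dismutases turn superoxide into hydrogen peroxide, and catalase splits hydrogen peroxide. Many of these genes carry antioxidant response elements, to which the transcription factor NRF2 binds. In the testis, Sertoli and Leydig cells are known for high levels of glutathione transferases, and germ cells depend on the selenium enzyme Gpx4.

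Below, intensities are linear values given array by array, as control replicate 1 and 2 and then antibody replicate 1 and 2. Log2 changes are antibody minus control on the log2(intensity + 16) scale, ± SE with n = 2 arrays per group, and understate the change of dim genes. Adjusted p-values are from limma with Benjamini-Hochberg adjustment over all 5252 probe sets tested. Fewer cells of a type and less RNA per cell cannot be told apart in whole testis RNA.

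A single probe set each of Gsta3, Mgst3, Txnip and Txnrd2 had values 1.35 to 1.92 times higher after the antibody on the fitted scale, at an unadjusted p under 0.05, and 1 each of Sod3, Gclm and Gpx7 had lower values at that level. The second tested probe sets of Txnip and Txnrd2 were 1.30 and 1.23 times higher and missed it. No member passed the adjusted threshold of 0.05 in either direction, where 0.267% of all tested probe sets passed. At an unadjusted p under 0.05 there were 4 higher members (6.45% of 62, against 3.98% of all probe sets tested) and 3 lower members (4.84%, against 4.13%). Median centring of the arrays made the split over all probe sets at this level 136 higher and 268 lower in place of 209 and 217. The arrays of the groups did not overlap for 13 higher members (21.0%, against 21.9% of all) and 6 lower members (9.68%, against 15.5%). A non-overlapping change of at least 1.5-fold was found for 3 higher members (4.84%, against 1.28%) and for 0 lower members (against 2.27%). Most members lay close to no change: 48 of 62 (77.4%) were within 0.25 of 0 on the log2 scale, as were 70.7% of all probe sets tested. The median change of the members was 0.07, with 38 of 62 above 0 (61.3%, against 55.3% of all) and 24 below, and that of all probe sets was 0.03. By gene, each on its probe set with the highest mean, 21 of 37 members were above 0, with a median of 0.027. Taken the same way over all probe sets tested, 1766 of 3170 were above 0, with a median of 0.034. After median centring, 54.8% of the member probe sets were above 0, against 47.2% of all.

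**Figure D1:**
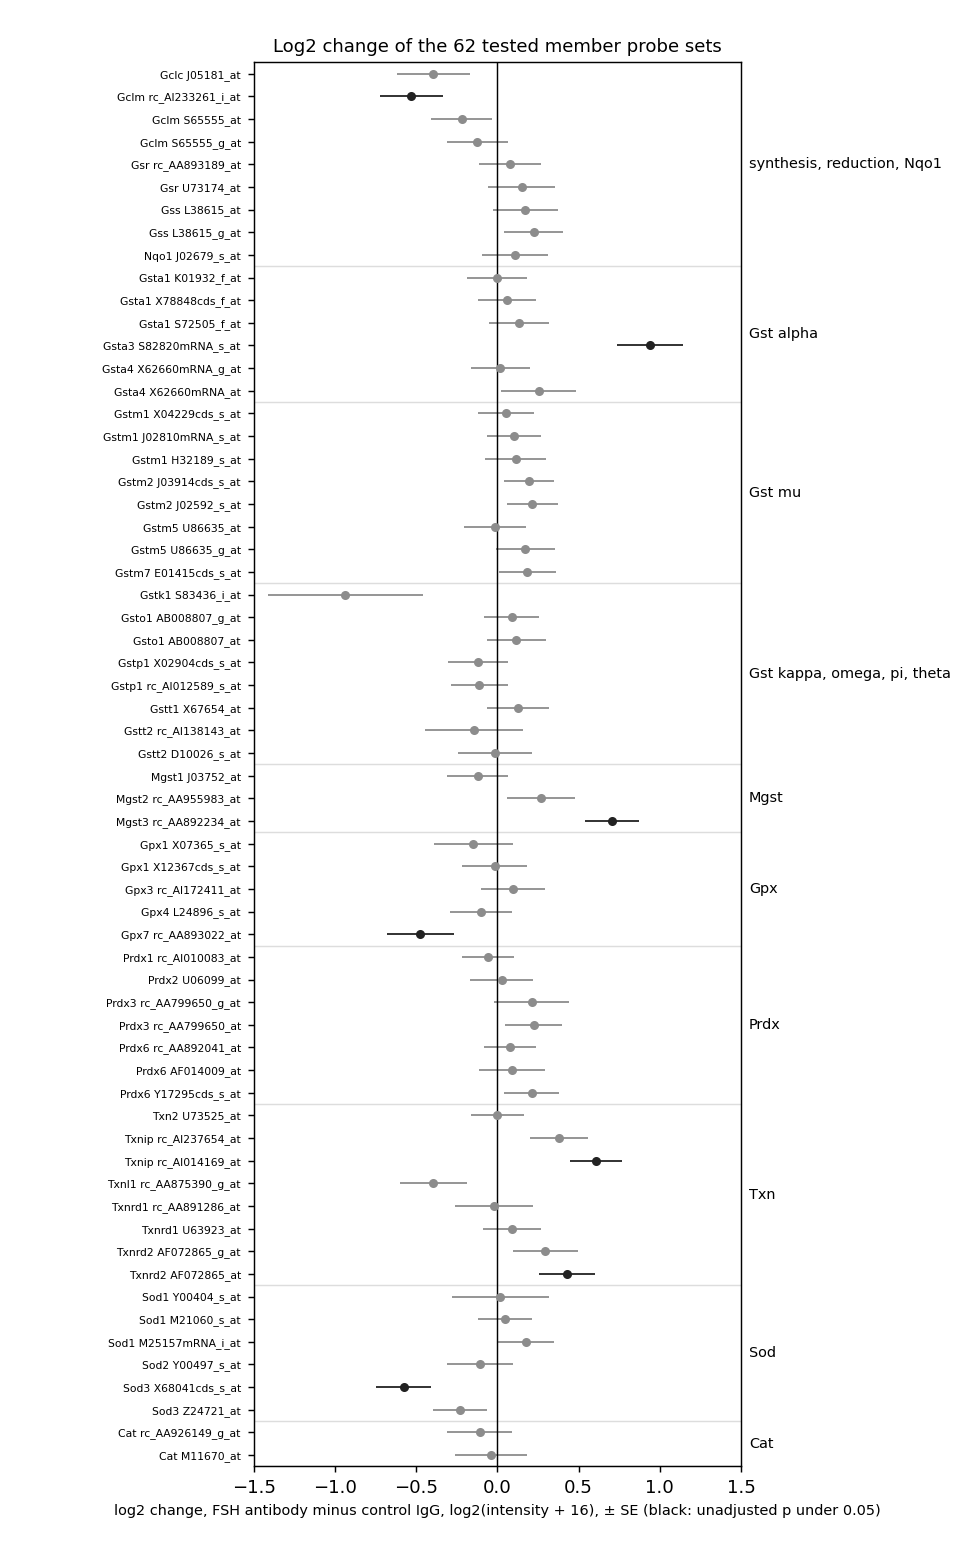
Log2 change (FSH antibody minus control IgG, on the log2(intensity + 16) scale) of each of the 62 tested member probe sets, with bars of ± SE, grouped by enzyme family; black points had an unadjusted p under 0.05. Most points lie near 0, Gsta3 stands farthest to the right at 0.94, and the lowest point, Gstk1 at −0.93, has the widest bar.

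The promoters of 3 members are shown because 1 probe set of each was among the larger changes, in opposite directions (Gsta3 and Mgst3 higher, Gclm lower). The other tested Gclm probe sets gave −0.22 and −0.12, with overlapping groups. Each stretch is the RefSeq sequence (GRCr8) of the 250 bases before an annotated gene start, 5′ to 3′ on the gene's own strand. Capitals mark the core of the antioxidant response element, TGACNNNGC, on either strand. The windows are chr9:31154739-31154988 (plus strand) for Gsta3, chr2:213031885-213032134 (plus strand) for Gclm and chr13:82080296-82080545 (minus strand) for Mgst3.
Gsta3: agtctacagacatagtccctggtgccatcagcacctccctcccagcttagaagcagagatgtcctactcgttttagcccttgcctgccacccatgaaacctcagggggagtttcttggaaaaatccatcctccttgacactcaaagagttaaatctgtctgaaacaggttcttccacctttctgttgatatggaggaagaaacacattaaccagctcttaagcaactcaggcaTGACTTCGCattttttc
Gclm: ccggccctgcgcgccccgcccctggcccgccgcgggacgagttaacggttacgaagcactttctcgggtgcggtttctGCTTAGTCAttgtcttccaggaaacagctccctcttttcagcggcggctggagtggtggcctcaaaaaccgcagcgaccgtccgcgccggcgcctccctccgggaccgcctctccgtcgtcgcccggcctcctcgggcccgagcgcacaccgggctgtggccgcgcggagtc
Mgst3: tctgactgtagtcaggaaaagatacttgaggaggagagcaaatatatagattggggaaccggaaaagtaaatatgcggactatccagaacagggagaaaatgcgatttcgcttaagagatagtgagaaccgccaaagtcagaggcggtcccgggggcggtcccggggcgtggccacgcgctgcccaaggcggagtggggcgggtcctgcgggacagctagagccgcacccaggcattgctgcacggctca
In Gsta3 the core starts 17 bases before the gene start, in Gclm it lies on the other strand starting 172 bases before it, and the Mgst3 window holds no match. A second annotated Gsta3 start had no match in its window. Of the 41 genes, 34 had at least 1 such window (38 windows). Not matched were Gsr, Gstt1, Gstt2, Mgst2, Prdx6, Sod3 and Txnip. The core was found in 9 of the 38 windows (23.7%) and in 10.1% of all 33469 windows of the same length. The members that hold it were Gclm, Gpx2, Gsta3, Gstm5, Gstm7, Gstp1, Prdx1, Sod2 and Txnrd1, of which Gpx2 was too dim to test. Of these only Gsta3 and Gclm had a probe set with an unadjusted p under 0.05, in opposite directions. Mgst3, Txnrd2 and Gpx7 also had such a probe set, and their windows hold no core. The cAMP response element TGACGTCA, which shares the letters TGAC with that core, was searched on both strands and was found in the window of 1 member, Txnl1 (2.63% of windows, against 1.59% of all), and no matches overlapped in the members. The E-box CACGTG, searched in the same way, was in 0 of the 38 member windows and in 5.59% of all. A match is a description of letters and no evidence of binding.

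Glutathione is made in a pair of steps, by glutamate-cysteine ligase and then by glutathione synthetase. The ligase transcripts had lower values after the antibody and the synthetase transcript higher ones, none of which passed the adjusted threshold. The catalytic subunit Gclc measured 44.6 and 53.3 in the controls, then 25.8 and 42.3 with antibody, which gives a difference of −0.39 ± 0.23 (adjusted p = 0.714). Both antibody arrays lay below both control arrays, and the difference was −0.15 without FSH antibody replicate 1 and −0.63 without FSH antibody replicate 2. The modifier subunit Gclm had 3 tested probe sets. On rc_AI233261_i_at it was at 174.5 and 189.8 and then at 142.0 and 103.3 (−0.53 ± 0.19, adjusted p = 0.539), with no overlap. On S65555_at it was at 218.2 and 177.0 and at 183.1 and 151.6 (−0.22 ± 0.19), and on S65555_g_at at 138.1 and 127.6 and at 139.6 and 104.1 (−0.12 ± 0.19), with overlapping groups on both. The 3 Gclm probe sets thus shared a direction and differed in size by 0.41. Without FSH antibody replicate 2, rc_AI233261_i_at gave −0.33, S65555_at −0.095 and S65555_g_at 0.06, and S65555_at gave −0.079 without control IgG replicate 1.

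Glutathione synthetase, Gss, was at 226.8 and 185.0 in the controls and at 230.9 and 253.3 after the antibody on L38615_g_at, a change of 0.22 ± 0.18 (adjusted p = 0.825), and at 71.3 and 50.8 and at 65.4 and 74.9 on L38615_at (0.17 ± 0.20). The groups were separate on the first and overlapped on the second. Glutathione reductase, Gsr, which returns oxidised glutathione to its reduced form with NADPH, was at 45.2 and 54.1 and at 56.9 and 49.4 (0.08 ± 0.19) and, on a second probe set, at 26.1 and 32.9 and at 34.4 and 34.3 (0.15 ± 0.21). Nqo1, a quinone reductase widely used as a readout of NRF2, was at 55.6 and 41.8 and at 58.6 and 48.5 (0.11 ± 0.20, adjusted p = 0.932). The arrays of the groups overlapped for Nqo1 and for the first Gsr probe set.

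**Figure D2:**
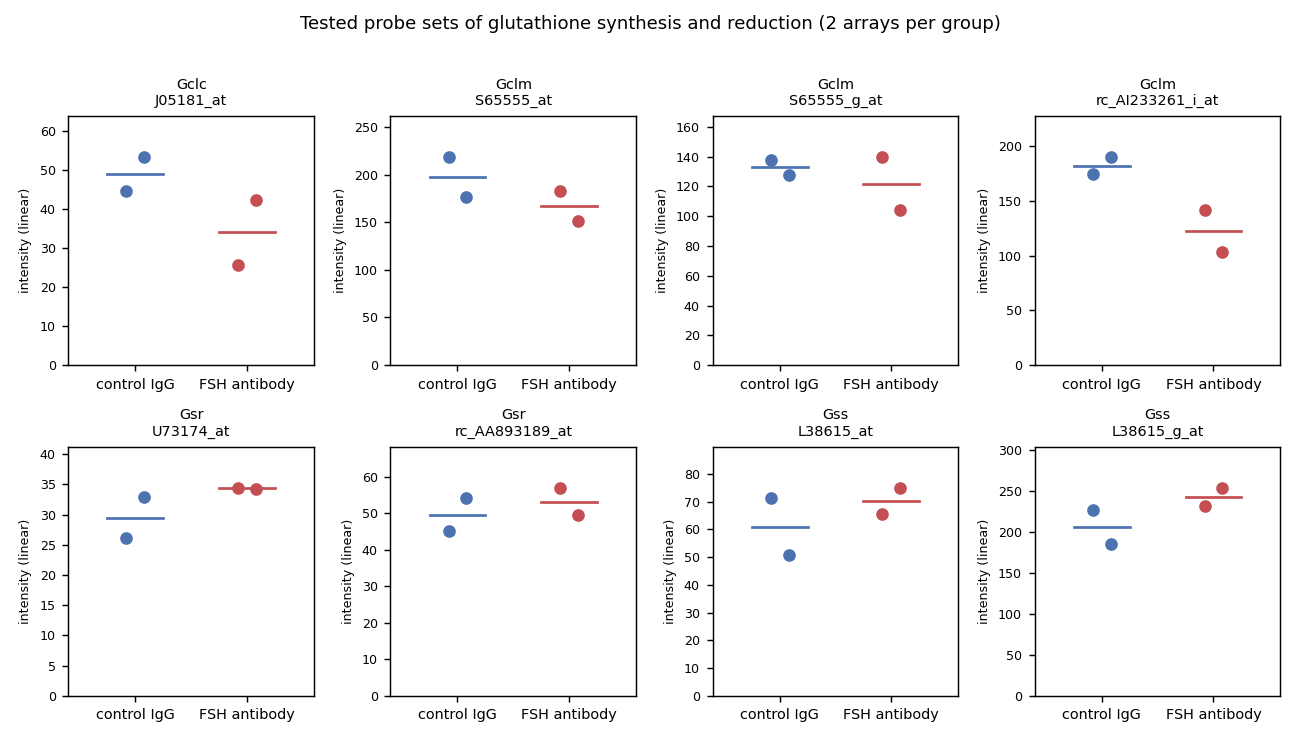
Linear intensity on each array for the tested probe sets of Gclc, Gclm, Gss and Gsr; points are arrays (2 per group), horizontal lines are group means, and each axis starts at 0. The antibody arrays lie below the control arrays for Gclc and for 1 of 3 Gclm probe sets, and above them for 1 Gss and 1 Gsr probe set.

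The largest change of any tested member on the fitted scale was in the alpha class of glutathione transferases. Gstk1, at −0.93, was close to it in size but rested on a single array. Gsta3 was at 34.9 and 23.9 in the controls and at 69.9 and 71.1 after the antibody. Both antibody arrays were above both controls, with means of 29.4 ± 7.78 and 70.5 ± 0.849 (SD, n = 2), a log2 change of 0.94 ± 0.20 with a 95% interval of 0.49 to 1.40 and an adjusted p of 0.142. With FSH antibody replicate 1 left out the adjusted p was 0.0206 and with FSH antibody replicate 2 left out 0.0415, while leaving out control IgG replicate 1 or 2 gave 0.387 and 0.789. The remaining Gsta3 probe sets were too dim to test, at 1.0 to 9.4 over all arrays, so the change stands on 1 probe set. That probe set and the dim S72506_s_at carry the suffix the maker gives to probes that several transcripts share, and near-identical alpha genes may add to its signal.

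Other alpha class members differed by less than the spread between arrays. Gsta1, a main transferase of the liver, was at 1366 and 1492 in the controls and at 1348 and 1822 after the antibody on S72505_f_at (0.13 ± 0.18, adjusted p = 0.895). Its other probe sets gave 0.06 and −0.0015, and all 3 are of the type that matches a gene family, so they cannot be given to Gsta1 alone. Gsta4, which removes the lipid peroxidation product hydroxynonenal, gave 0.25 ± 0.23 and 0.02 ± 0.18. By count, 5 of the 6 alpha class probe sets had higher values, 4 of 6 with median centring and 1 of 6 without FSH antibody replicate 2.

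Most mu class probe sets had slightly higher values, and none passed the adjusted threshold. Gstm1 was at 2181 and 2593 in the controls and at 2377 and 2745 after the antibody (0.10 ± 0.17, adjusted p = 0.921), and its groups overlapped. Gstm2 had separate groups on both probe sets, at 1666 and 1686 against 1818 and 2091 on J02592_s_at (0.22 ± 0.16, adjusted p = 0.805) and at 1808 and 1737 against 1963 and 2100 on J03914cds_s_at (0.19 ± 0.15). Gstm7 gave 0.18 ± 0.17, and Gstm5, the mu enzyme known from testis and brain, gave −0.01 ± 0.19 and 0.17 ± 0.18. Of 8 mu class probe sets, 7 had higher values, 8 after quantile normalization and 4 without control IgG replicate 1, and 0 had an unadjusted p under 0.05. Mu class genes are close in sequence, and 6 of the 8 probe sets carry the suffix for shared probes, so signal may be split between them.

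The remaining soluble transferases showed no shared direction. Gstp1, the pi class enzyme, was at 942 and 1052 in the controls and at 823 and 1030.0 after the antibody (−0.11 ± 0.18, adjusted p = 0.918), while X02904cds_s_at, also for Gstp1, gave −0.12 ± 0.18. Gsto1, the omega class enzyme that reduces dehydroascorbate, gave 0.12 and 0.09, Gstt1 0.13, and Gstt2 −0.01 and −0.14. Gstk1, the kappa class enzyme of mitochondria and peroxisomes, was at 198.2 and 189.2 in the controls and at 198.2 and 40.2 after the antibody. Its change of −0.93 ± 0.48 (adjusted p = 0.664) came from FSH antibody replicate 2 alone, since replicate 1 equalled a control array. With replicate 1 left out it was called, with an adjusted p of 2.75e-11, which compares that single low array with the controls. Its second probe set was too dim to test, at 26.1 and 23.6 and at 14.8 and 29.7.

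Of the membrane-bound transferases, Mgst3 had the clearest difference. Mgst3, which reduces lipid hydroperoxides and makes leukotriene C4, was at 341.0 and 376.9 in the controls and at 591.3 and 598.8 after the antibody, means of 359 ± 25.4 and 595 ± 5.30 (SD, n = 2). The groups were separated by a gap wider than the spread within either, with a change of 0.71 ± 0.16, an interval of 0.34 to 1.08 and an adjusted p of 0.184. Without each array in turn the change stayed between 0.64 and 0.78. Mgst2, a related enzyme, was at 222.9 and 242.4 and at 230.3 and 348.3 (0.27 ± 0.21), with overlap. Mgst1, an abundant enzyme of endoplasmic reticulum and mitochondria, was at 1362 and 1313 and at 1044 and 1447 (−0.12 ± 0.19, adjusted p = 0.916), again with overlap. The 3 genes therefore did not share a direction.

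**Figure D3:**
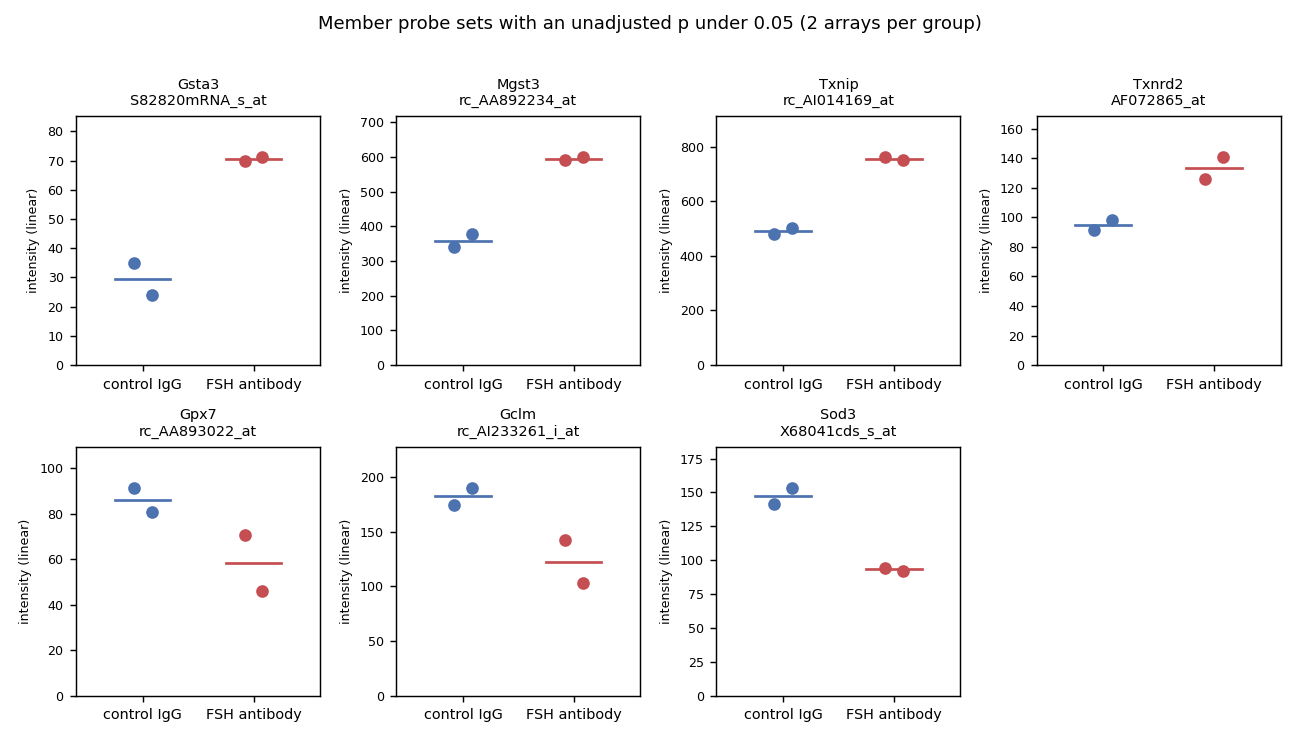
Linear intensity on each array for the 7 member probe sets with an unadjusted p under 0.05, ordered by log2 change; points are arrays (2 per group), lines are group means, and each axis starts at 0. The groups do not overlap in any panel, which choosing the panels by this p-value favours, and 4 of the 7 are higher after the antibody.

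Glutathione peroxidases had mostly lower values with wide overlap. Gpx4, which reduces lipid peroxides in membranes and is abundant in maturing germ cells, was at 665.8 and 885.3 in the controls and at 764.0 and 670.5 after the antibody (−0.10 ± 0.19, adjusted p = 0.933). Its highest array was control replicate 2 and its groups overlapped. The summed intensity of 9 spermatocyte markers was also highest on that array, at 1362 and 2180.0 in the controls and 1696 and 1092 after the antibody. Single markers disagreed: Hspa2, Ldhc, Sycp3, Pdha2 and H2bc1 were highest on that array, while Sycp1, Sycp2 and Adam2 were lowest on it. The part of these markers in the result was not tested. Gpx7, a peroxidase of the endoplasmic reticulum, was at 91.3 and 80.6 and at 70.7 and 46.1, a change of −0.47 ± 0.21 (adjusted p = 0.610) with separate groups. Without FSH antibody replicate 2 it was −0.23. Gpx1, the cytosolic enzyme, gave −0.02 ± 0.20 and −0.15 ± 0.24, and Gpx3, the secreted enzyme, gave 0.10 ± 0.20. Of the 5 tested probe sets 4 had lower values, and 2 of 5 without control IgG replicate 2 or without FSH antibody replicate 1.

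Peroxiredoxins, which reduce peroxides with electrons from thioredoxin, differed by 0.22 or less. Prdx6, the member that uses glutathione instead, was at 1528 and 1488 in the controls and at 1479 and 1717 after the antibody on its brightest probe set (0.08 ± 0.16, adjusted p = 0.935). The others gave 0.09 and 0.21. Prdx3, the mitochondrial member, was at 337.3 and 278.3 and at 345.5 and 376.0 on rc_AA799650_at (0.22 ± 0.18), where the groups were separate, and gave 0.21 ± 0.23 on rc_AA799650_g_at, where they overlapped. Prdx1 gave −0.06 ± 0.16 and Prdx2, which is abundant in red blood cells, 0.03 ± 0.20. Of 7 probe sets 6 had higher values, 5 with median centring and 4 without control IgG replicate 2 or FSH antibody replicate 2.

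Within the thioredoxin system the inhibitor Txnip and the mitochondrial reductase Txnrd2 had higher values. Txnip, which binds reduced thioredoxin and restrains glucose uptake, was at 480.0 and 501.4 in the controls and at 761.4 and 750.5 after the antibody, means of 491 ± 15.1 and 756 ± 7.71 (SD, n = 2). The arrays within each group lay close together, and the change was 0.61 ± 0.16 with an interval of 0.25 to 0.97 and an adjusted p of 0.271. A second probe set was at 249.5 and 311.4 and at 358.8 and 376.9 (0.38 ± 0.18, adjusted p = 0.634), also with separate groups. Txnrd2, which keeps mitochondrial thioredoxin reduced, was at 91.5 and 98.4 and at 126.2 and 140.7 (0.43 ± 0.17, adjusted p = 0.580) and, on its second probe set, at 63.2 and 91.7 and at 101.7 and 93.1 (0.30 ± 0.20). Both probe sets had separate groups, narrowly so on the second.

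The cytosolic reductase Txnrd1 gave no such difference. It was at 339.1 and 297.3 in the controls and at 410.6 and 237.8 after the antibody on rc_AA891286_at (−0.02 ± 0.24), where the antibody arrays were the highest and the lowest of the 4. On U63923_at it was at 85.6 and 73.5 and at 91.3 and 80.1 (0.09 ± 0.18, adjusted p = 0.933). Whether Txnrd2 and Txnrd1 differed in response was not tested. Mitochondrial thioredoxin, Txn2, was at 531.1 and 506.4 and at 522.1 and 515.5, with a change of 0.00049 ± 0.16, for which the 95% interval reached 0.36 either way. Txnl1, a thioredoxin-like protein bound to the proteasome, was at 396.1 and 370.0 and at 349.8 and 235.5 (−0.39 ± 0.21, adjusted p = 0.683). Its groups were separate, with FSH antibody replicate 2 the lowest.

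Of the superoxide dismutases, the secreted form Sod3 was lower. It was at 141.1 and 153.2 in the controls and at 94.3 and 92.4 after the antibody on X68041cds_s_at, means of 147 ± 8.56 and 93.4 ± 1.34 (SD, n = 2), a change of −0.58 ± 0.17 with an interval of −0.96 to −0.20 and an adjusted p of 0.373. On Z24721_at it was at 487.5 and 438.3 and at 390.6 and 392.9 (−0.23 ± 0.17, adjusted p = 0.801). Both probe sets had separate groups, and they differed in size by 0.35. Sod1, the cytosolic enzyme, was at 1751 and 2150.0 and at 1979 and 2035 on M21060_s_at (0.05 ± 0.17, adjusted p = 0.966). Its other probe sets gave 0.18 ± 0.17 and 0.02 ± 0.30, the latter with 471.3 and 995.7 on the antibody arrays, so the arrays of 1 group differed more than the groups. Sod2, the mitochondrial enzyme, was at 72.8 and 94.7 and at 65.4 and 88.5 (−0.10 ± 0.20, adjusted p = 0.933). Catalase, Cat, was at 139.0 and 129.0 and at 102.2 and 148.0 (−0.11 ± 0.20, adjusted p = 0.932) and on M11670_at at 55.1 and 34.2 and at 42.1 and 42.3 (−0.04 ± 0.22). The groups overlapped for Sod2 and for both Cat probe sets.

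Agreement between probe sets and between arrays set the scale for these values. Of the 20 genes with several tested probe sets, 17 had the same sign on each, and the exceptions were Gsta1, Gstm5 and Txnrd1. For 18 of the 20 the probe sets differed by under 0.25, and the widest gap, 0.41, was that of Gclm. The larger of the gaps between replicate arrays exceeded the change between groups for 51 of 62 members (82.3%) and for 74.7% of all probe sets tested. The 11 probe sets with a change at least as large as both gaps were 1 each of Gsta3, Mgst3, Txnrd2, Gclm and Prdx6 and both tested ones of Txnip, Sod3 and Gstm2. FSH antibody replicate 2 was above replicate 1 for 43 of the 62 members (69.4%) and for 50.2% of all probe sets tested. The members' median change was 0.16 without FSH antibody replicate 1 and −0.0037 without control IgG replicate 1, so its sign rested on single arrays. The 95% interval of a member reached 0.34 to 1.07 to either side of its value (median 0.42), so changes smaller than this could not be told from 0.

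**Figure D4:**
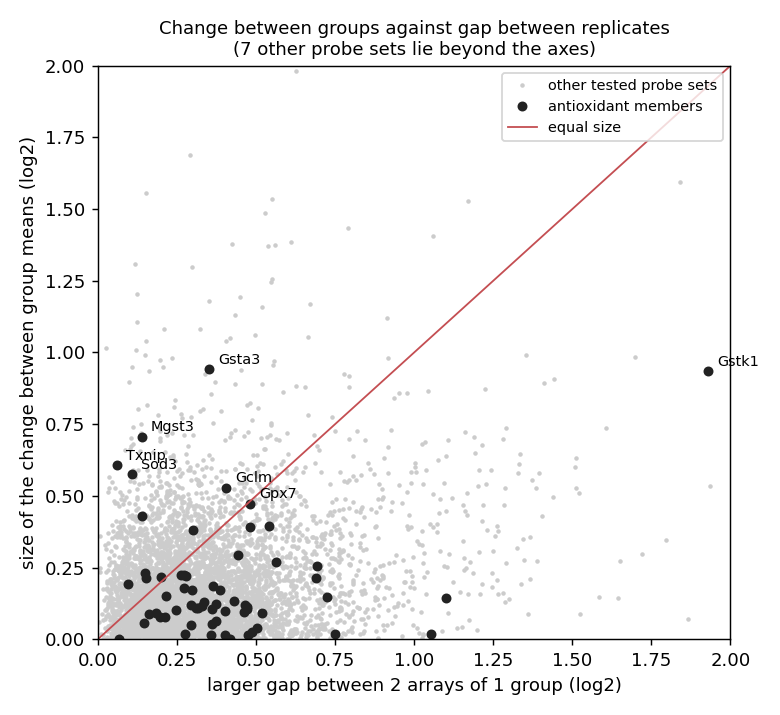
Size of the log2 change between group means (vertical axis) against the larger of the 2 log2 gaps between arrays of 1 group (horizontal axis), for members (black) and other tested probe sets (grey); the line marks equal size. Most members lie below the line, Txnip, Sod3, Mgst3 and Gsta3 lie well above it, and Gstk1 lies far to the right.

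Other genes of the same pathways (90 symbols named as NRF2 targets, partners of glutathione metabolism, NADPH supply, metal binding and oxidant sources) gave 41 tested genes with 61 probe sets. No probe set of this list passed the adjusted threshold. At an unadjusted p under 0.05 there were 4 higher and 5 lower probe sets (14.8% of 61, against 8.11% of all tested), and 47.5% had separate groups, against 37.4% of all. The list was chosen with earlier results of these data known, so these shares cannot test it against the array. By the probe set with the highest mean, 22 genes had higher and 19 lower values, with a median of 0.04, and of −0.0085 with median centring. Over all 61 probe sets, 28 had higher and 33 lower values, with a median of −0.033, so the sign depended on the unit counted.

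The 4 higher probe sets at this level were those of Aldh1a1, Abcc3, Ephx2 and Aldh3a1. Aldh1a1, a retinal dehydrogenase, was at 2022 and 1744 in the controls and at 2813 and 2258 after the antibody (0.42 ± 0.17, adjusted p = 0.580). Abcc3, a pump for organic anions, was at 85.2 and 137.1 and at 153.4 and 188.1 (0.58 ± 0.22, adjusted p = 0.580), Ephx2, the soluble epoxide hydrolase, gave 0.48 ± 0.18 and Aldh3a1 0.49 ± 0.21. The groups of all 4 were separate. Related genes differed: the aldehyde dehydrogenase Aldh3a2 gave −0.32 ± 0.18 and −0.33 ± 0.19, Aldh2 gave 0.05 ± 0.17, and the pump Abcc1 gave 0.26 ± 0.20 and −0.10 ± 0.18. Lower values were found for Akr7a3, an aldehyde reductase, at 537.0 and 451.4 and at 338.4 and 292.2 (−0.62 ± 0.18, adjusted p = 0.353), and for Trib3, a stress-induced pseudokinase, at 43.3 and 36.8 and at 20.8 and 16.1 (−0.70 ± 0.22, adjusted p = 0.437). Mat2a, which makes S-adenosylmethionine, was at 280.8 and 267.0 and at 188.7 and 184.9 (−0.52 ± 0.17, adjusted p = 0.469). Slc3a2, the heavy chain of the cystine transporter, gave −0.51 ± 0.20 on 1 probe set and 0.04 ± 0.17 on the other, and Akr1b1, aldose reductase, gave −0.42 ± 0.17 and −0.10 ± 0.22. Probe sets thus disagreed for these last genes. Nfe2l2, which encodes NRF2, was at 162.0 and 206.3 and at 161.4 and 120.3 (−0.36 ± 0.20) and gave −0.09 ± 0.18 on its second probe set, and Hmox1, heme oxygenase, gave −0.40 ± 0.18 and −0.25 ± 0.22. None of these passed.

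**Figure D5:**
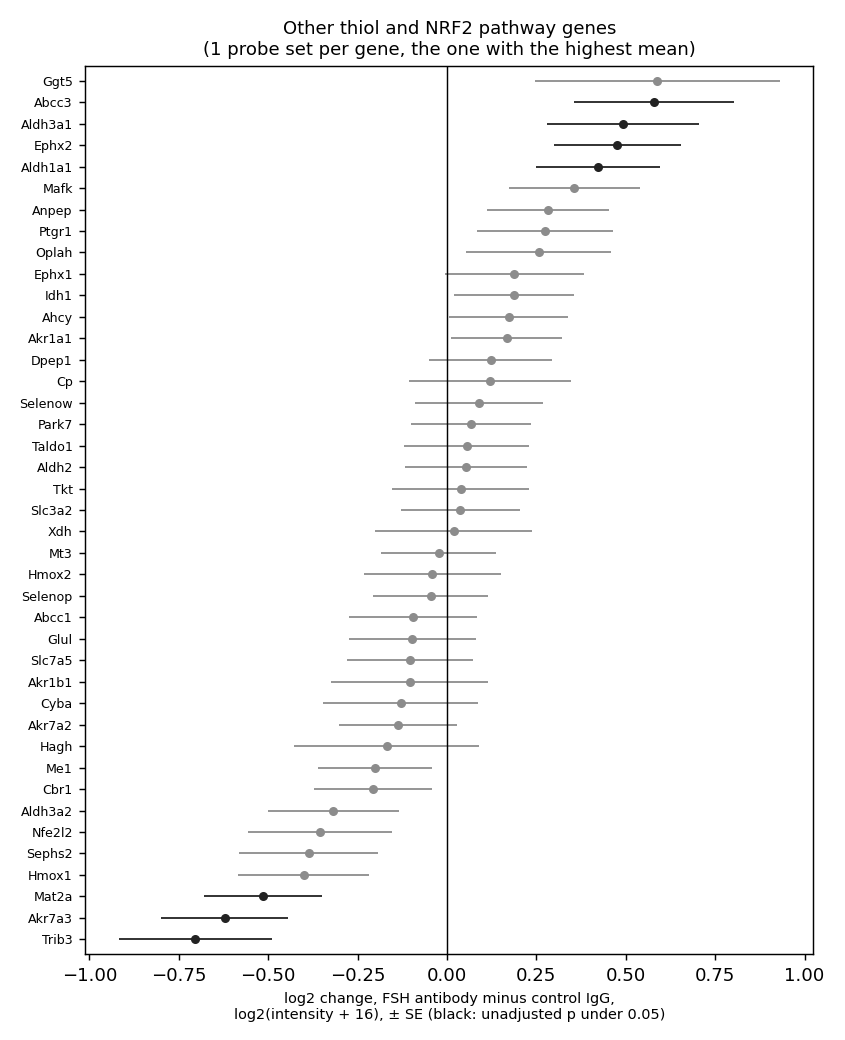
Log2 change (FSH antibody minus control IgG, log2(intensity + 16) scale) ± SE for 41 other genes of thiol and NRF2 pathways, each on its probe set with the highest mean; black points had an unadjusted p under 0.05. Values run from Trib3 at −0.70 to Ggt5 at 0.59, whose bar is the widest.

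Markers of the cell types that express these enzymes were compared beside them. The summed intensity of 14 Sertoli cell markers lay between 10948 and 11447 in the controls and between 10659.6 and 11508 after the antibody, but Clu alone gave 6440 to 7459 of it on each array, and single markers moved apart. Of the list's 20 tested probe sets, 6 were higher and 3 lower at an unadjusted p under 0.05. By gene, on the probe set with the highest mean, 4 of 13 were higher and 3 lower. Over all probe sets tested, 3.98% were higher and 4.13% lower at that level. Separate groups were found for 55% of the list, against 37.4% of all. The marker lists too were chosen with earlier results of these data known, so their shares cannot test them against the array. Testin, a junction protein of Sertoli cells, rose by 1.56 ± 0.18 (adjusted p = 0.0152, limma). Amh gave 0.52 ± 0.16, while Inha, the inhibin alpha subunit, gave −0.90 ± 0.19 on M36453_at and Shbg, the androgen-binding protein, −0.66 ± 0.16, none of which passed the adjusted threshold. The summed intensity of 8 Leydig cell markers lay between 2879.9 and 2899 in the controls and between 2270.1 and 2492 after the antibody. By gene 3 of 8 were higher and 5 lower, while Gsta3 and Mgst3 were higher. Cyp17a1 alone gave 1361 to 1730 of that sum on each array. Star was at 75.9 and 86.2 and at 25.5 and 12.8 on AB006007_s_at (−1.49 ± 0.23, adjusted p = 0.0418, limma). Of the 14 tested Leydig probe sets, 2 were higher and 6 lower at an unadjusted p under 0.05, and 85.7% had separate groups. The 6 lower ones were all of Star, Fdx1 and Scarb1. By gene, on the probe set with the highest mean, 1 was higher and 2 lower at that level. The sum of 6 endothelial markers lay between 223 and 224 in the controls and between 291 and 354 after the antibody. All 4 tested genes were higher on the probe set with the highest mean, while Sod3, which binds to vessel walls, was lower. Of the 6 tested endothelial probe sets, 5 were above 0 and 1, for Nos3, was at −0.03. Over all probe sets tested, 55.3% were above 0. The sum of 5 erythroid markers was 2166 and 3668 in the controls and 2002 and 2297 after the antibody. Hbb alone gave 1151 to 2260 of it on each array, and its groups overlapped. Alas2 was at 158.4 and 218.0 and at 72.8 and 51.9 (−1.38 ± 0.21, adjusted p = 0.0418, limma). By gene 1 of the 4 tested was higher and 3 lower. Control replicate 2 was the highest array for 1 of 2 Gpx1 probe sets and for neither Prdx2 nor any tested Cat probe set. The part of these shifts in the members' values was not tested. No probe set of these 10 lists was at 0 on every array. Gpx5, the peroxidase that marks the epididymis, was listed at 1.2 to 3.8 on the 4 arrays and was too dim to test.

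The 13 member probe sets that did not pass the filter had mean intensities of 1.13 to 23.9. For 4 genes, Gpx2, Gpx5, Gpx6 and Txnl4b, no probe set was bright enough. Txnl4b, a splicing factor related to thioredoxin, was at 25.5 and 37.2 in the controls and at 18.1 and 14.7 after the antibody, and the others lay between 1.2 and 15.1. Without detection calls it cannot be told whether these transcripts were present.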

How the data were processed

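RNA from 4 testis samples was hybridised to Affymetrix U34A arrays. The authors deposited linear intensities, 1 per probe set, and no software, background correction or scaling step is given in the sources used here. The means without the lowest and highest 2% of values were equal (125), so the arrays had been scaled to a common level. Control probe sets (59) were left out. Values were analysed as log2(intensity + 16), and those whose mean fell under the 40th percentile were dropped, which left 5252. The 2 groups entered a limma 3.58.1 model (R 4.3.3; lmFit, then eBayes with trend), two-sided, and p-values were adjusted by Benjamini-Hochberg over all of them. The script was tested on simulated data. Per array values are given for members with an unadjusted p under 0.05, with separate groups and a 1.5-fold change, with the highest mean of their family, and for Cat, Gclc, Gclm, Gss, Gsr, Nqo1, Sod1, Sod2, Txn1, Txnrd1 and Gpx4; no member probe set was named Txn1. A few further members and pathway genes were named after their values were seen. Symbols updated through Entrez identifiers changed no member. Members and lists were chosen with earlier results of these data known, and the 3 promoter motifs, the promoters printed and the 0.25 limit were chosen after values were seen. The alternatives were quantile normalization, median centring, constants of 1 and 64, other filters, no trend, a replicate block, each array left out, gene means over probe sets and updated symbols. No genome positions of probe sets are given, since no build is named for the array values.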

Additional observations from a re-analysis of the deposited data

How the results depend on the processing

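No member passed the adjusted threshold under any setting with all 4 arrays. The number of members called was 0 to 2 when 1 array was left out: Gsta3 and Gstk1 without FSH antibody replicate 1, and Gsta3 without FSH antibody replicate 2. Over all probe sets, 14 were called (6 higher, 8 lower). Quantile normalization and no filter each called 0 (0 higher, 0 lower), and median centring 4 (3 higher, 1 lower). A constant of 1 and the fit without an intensity trend each called 4 lower. The replicate block called 39 (12 higher, 27 lower), 0 of them members. It left 5 of 62 members lower at an unadjusted p under 0.05, beside 266 of all 5252 probe sets. Deviations of same-numbered arrays correlated at 0.00386 over all probe sets tested and at 0.27 over the members, and the labels tie no number to a shared litter, batch or day, so the numbers were not taken to pair the samples. With each array removed in turn the calls numbered 0 to 154 (0 to 34 higher, 0 to 120 lower), 0 without control IgG replicate 1 or 2 and 154 without FSH antibody replicate 1. Members at an unadjusted p under 0.05 then numbered 3 to 7 higher and 1 to 6 lower, and members with separate groups 19 to 33 higher and 11 to 22 lower, more because a group of 1 array separates more easily. The members' median ranged from −0.0037 to 0.16 and the median over member genes from −0.022 to 0.12. The pathway list's median over genes ranged from −0.038 to 0.047 (−0.0085 with median centring).

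Of 29 named probe sets, 12 kept their direction in every setting run. Sod1 on Y00404_s_at turned to −0.029 with median centring. With 1 array left out, the log2 change of Cat ranged from −0.29 to 0.21 (M11670_at) and −0.34 to 0.13 (rc_AA926149_g_at), Gclm on S65555_g_at from −0.31 to 0.065, Gsr on rc_AA893189_at from −0.022 to 0.17, Gss on L38615_at from −0.021 to 0.36, Nqo1 from −0.046 to 0.26 and Gpx4 from −0.30 to 0.10. Ranges were −0.082 to 0.35 for Gsta1 on S72505_f_at, −0.021 to 0.23 for Gstm1 on J02810mRNA_s_at, −0.35 to 0.11 for Mgst1, −0.27 to 0.048 for Gstp1 on rc_AI012589_s_at and −0.028 to 0.19 for Prdx6 on rc_AA892041_at. They were −0.10 to 0.19 and −0.51 to 0.54 for Sod1 on M21060_s_at and Y00404_s_at, −0.28 to 0.076 for Sod2, and −0.39 to 0.35 and −0.00077 to 0.18 for Txnrd1 on rc_AA891286_at and U63923_at. Direction held but size moved for Gclc (−0.63 to −0.15), Gclm on S65555_at (−0.36 to −0.079), Gss on L38615_g_at (0.087 to 0.36), Gsr on U73174_at (0.042 to 0.26) and Sod1 on M25157mRNA_i_at (0.042 to 0.31). For all of these the cause was not tested. With 2 arrays per group and no detection calls, small changes and dim probe sets cannot be resolved.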
